A study of Mus musculus with 10 samples.

Results

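The genes described here are the secreted ligands, surface receptors, extracellular antagonists and nuclear effectors of the Wnt pathway in 3 populations of mouse endothelial cells. Members were chosen by symbol alone: every Wnt, Fzd, Sfrp and Dkk gene of the count table, and in addition Lrp5, Lrp6, Rspo1 to Rspo4, Lgr4, Lgr5, Axin2, Lef1, Tcf7, Tcf7l1, Tcf7l2, Ctnnb1 and Wif1. They came to 52 of 23284 symbols, made up of 19 Wnt ligands, 10 Fzd receptors, 4 Sfrp and 4 Dkk antagonists, Wif1, 4 R-spondins, 2 Lgr receptors, 2 Lrp co-receptors, 4 Tcf/Lef factors, and Axin2 and Ctnnb1. RNA sequencing was done on LN-LEC (lymph node lymphatic endothelium, 4 libraries), LN-BEC (lymph node blood endothelium, 3 libraries) and D-LEC (lymphatic endothelium of diaphragm, 3 libraries). All mice were wild-type C57BL/6 (B6) of 6 to 8 weeks with no treatment, and the node populations came from pools of mesenteric, cervical, brachial, axillary and inguinal nodes. Cells were depleted of CD45-bearing cells and sorted on CD31 and PDPN, and each library is a pool of several animals, so that the spread between libraries is the spread between pools. The comparisons ask how lymphatic endothelium of nodes differs from that of a peripheral tissue and from blood endothelium of nodes.

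Wnt proteins are lipid-modified ligands that bind a Frizzled receptor (Fzd), together with Lrp5 or Lrp6 in the canonical branch. Binding spares beta-catenin (Ctnnb1) from degradation, and beta-catenin then acts in the nucleus through the Tcf/Lef factors, with Axin2 as a widely used target. R-spondins bind Lgr receptors and keep Frizzled receptors on the surface, whereas Sfrp proteins and Wif1 bind the ligands and most Dkk proteins block Lrp. In endothelium the pathway is best known for blood-brain barrier formation, retinal vessel growth and lymphatic valve development.

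The libraries held 22429940 to 48906070 counted fragments, and the members took 0.160% to 0.298% of them. Levels within a gene are given as normalized counts, which are fragment counts divided by a size factor for each library. Levels between genes are given in FPKM (fragments counted, scaled for exon length and for the total of the library). Prox1, the master regulator of lymphatic identity, was at 7578 to 8343 normalized counts in LN-LEC, 6666 to 8777 in D-LEC and 115 to 349 in LN-BEC, and Flt1, a VEGF receptor of blood endothelium, was at 150 to 255, 39.1 to 86.8 and 13648 to 15297. Ccl21a, a chemokine known from lymphatic endothelium, was at 0 in all 10 libraries. Only uniquely placed fragments entered the counts, so this 0 does not by itself show that the RNA was absent. The paper reports negligible CCL21 in LN-LEC by quantitative PCR, relative to whole nodes, contrary to earlier studies. In LN-BEC replicate 3 the summed level of the 6 lymphatic markers was 7955 normalized counts, against 4007 and 2891 in the other two LN-BEC libraries.

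Of the 52 members, 46 passed the filter on low counts and were tested. A difference was called at an adjusted p under 0.05 (edgeR quasi-likelihood F test, Benjamini-Hochberg over 15325 genes). In LN-LEC against D-LEC, 27 members were called, 12 on the LN-LEC side and 15 on the D-LEC side, which is 58.7% of those tested, beside 45.8% of all genes (24.1% and 21.7% on the respective sides). In LN-LEC against LN-BEC 21 were called, 16 higher in LN-LEC and 5 in LN-BEC, or 45.7% beside 38.2% of all genes (19.8% and 18.4%). Between D-LEC and LN-BEC 23 were called, 16 higher in D-LEC and 7 in LN-BEC, or 50% beside 48.1% of all genes (22.5% and 25.6%). The shares of the members lay close to the share of all genes in the last comparison and somewhat above it in the first. The median log2 difference over the tested members was -0.36, 0.18 and 0.41 in these 3 comparisons, beside 0.03, -0.01 and -0.05 over all genes. The 3 comparisons share libraries, so that each is given with its own values only.

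Read by population, 9 members were called above both others in LN-LEC (Wnt6, Wnt5b, Wnt11, Fzd1, Fzd7, Fzd10, Lgr4, Dkk2 and Sfrp1), 12 in D-LEC (Wnt9a, Wnt9b, Wnt5a, Wnt2b, Wnt4, Fzd6, Lrp6, Rspo1, Rspo3, Lgr5, Dkk3 and Sfrp2) and 2 in LN-BEC (Fzd4 and Lef1). These are 19.6%, 26.1% and 4.35% of the 46 tested members, beside 9.74%, 13.8% and 11.6% of all tested genes. In each of the 2 lymphatic populations the overexpressed members included ligands, receptors and antagonists. The plot of fitted differences gives all members that reached a mean of 1 FPKM in at least 1 population.

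**Figure D1:**
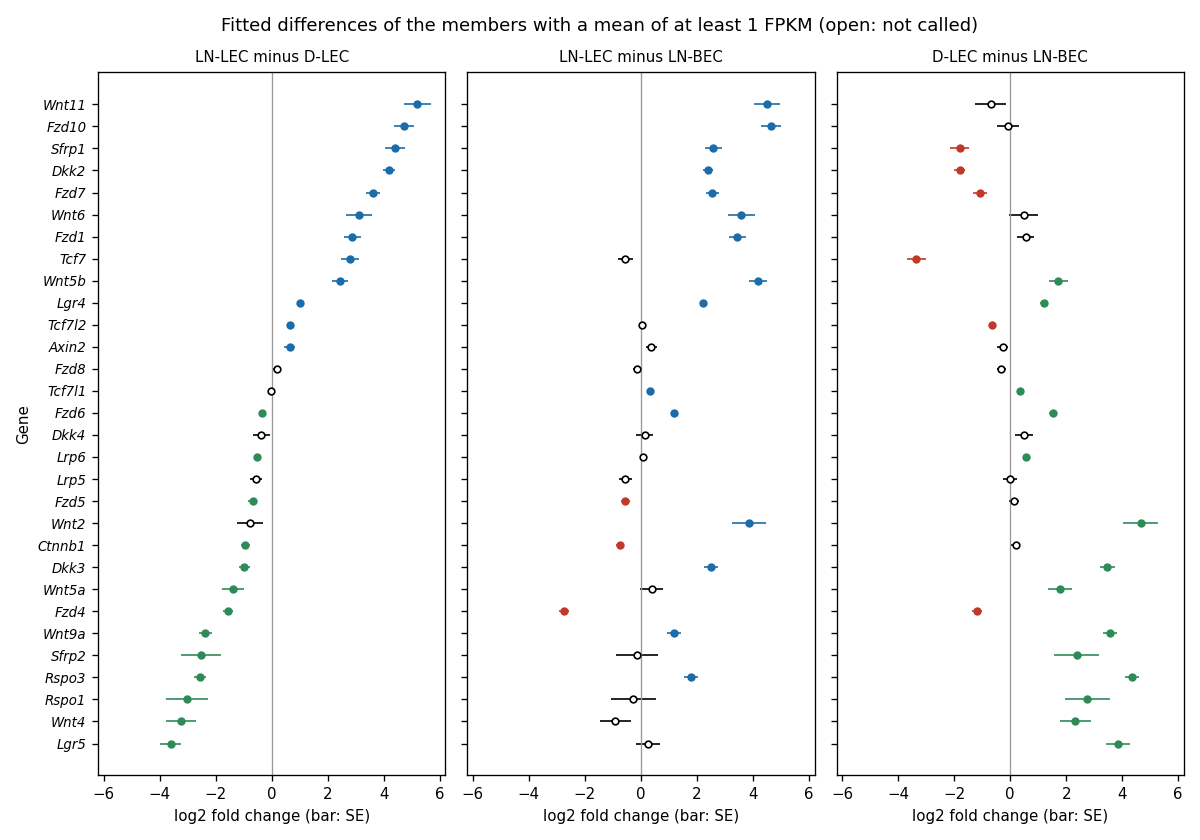
Log2 fold changes (x axis) with standard errors (bars) of the 30 members with a mean of at least 1 FPKM in at least 1 population (y axis, ordered by the first panel) in the 3 comparisons. Filled points passed an adjusted p of 0.05 and take the colour of the higher population (blue LN-LEC, green D-LEC, red LN-BEC); open points did not pass. Wnt11 lies at the LN-LEC end (5.20) and Lgr5 at the D-LEC end (-3.60) of the first panel.

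The Wnt ligands summed to 14.9 ± 0.776 FPKM in LN-LEC (SD, n = 4), 18.8 ± 2.52 in D-LEC (SD, n = 3) and 2.76 ± 0.756 in LN-BEC (SD, n = 3). Every library of both lymphatic populations, from 14.2 to 21.6 FPKM, was above every LN-BEC library, from 1.92 to 3.38. The composition of the sum differed as well. In LN-LEC, Wnt11 took 27.8% ± 3.85 (SD, n = 4) of the length-scaled level of the ligands, followed by Wnt2 (19.9% ± 7.35), Wnt6 (15.9% ± 3.17), Wnt5b (13.6% ± 3.35) and Wnt9a (10.2% ± 0.822). In D-LEC, Wnt9a took 41.7% ± 4.52 (SD, n = 3), Wnt2 27.8% ± 5.36 and Wnt5a 12.3% ± 1.54. In LN-LEC the shares of Wnt11 (22.1% to 30.2% by library) and Wnt2 (12.7% to 27.1%) overlapped, and so did those of Wnt2, Wnt6 and Wnt5b, while Wnt11 was above Wnt6 (11.9% to 19.7%) in every library. In D-LEC the share of Wnt9a (36.9% to 45.8%) was above that of Wnt2 (23.1% to 33.6%) without overlap.

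**Figure D2:**
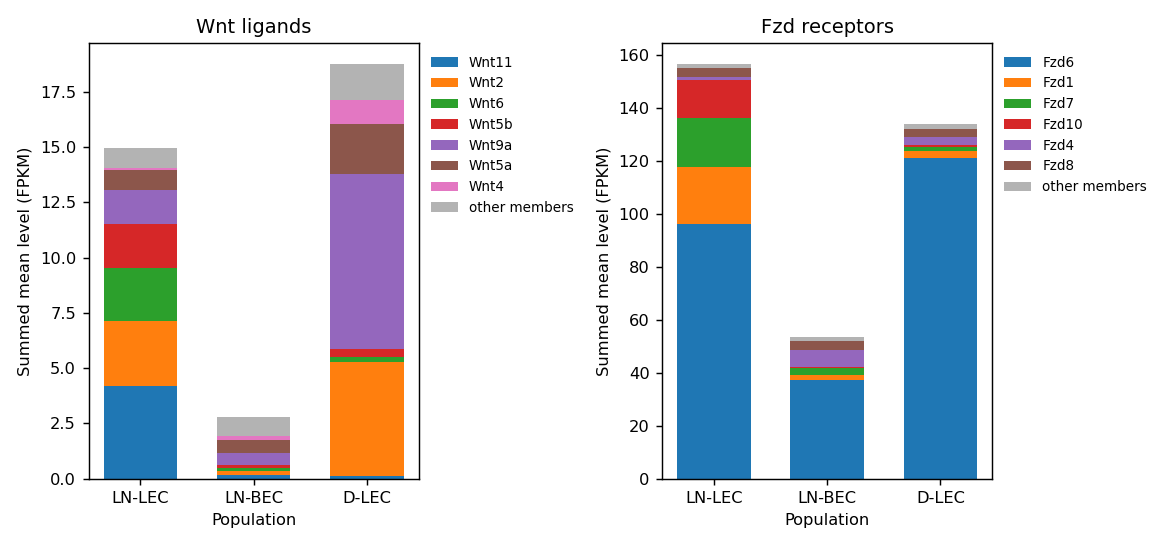
Mean level in FPKM (y axis, bars starting at 0) of the Wnt ligands (left) and Fzd receptors (right) in each population, stacked by gene, with the remaining members of each family in grey. The ligands sum to 14.9 FPKM in LN-LEC and 2.76 in LN-BEC, and Fzd6 is the largest part of the receptors in every population.

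Wnt11, Wnt6 and Wnt5b were the ligands overexpressed in LN-LEC. Wnt11, a ligand best known for beta-catenin-independent signaling and cell movement (mm9 chr7:105987355-106003257), was at 384, 333, 250 and 394 normalized counts in the LN-LEC libraries, at 15.8, 5.19 and 25.2 in LN-BEC and at 11.4, 3.01 and 13.2 in D-LEC. The lowest LN-LEC library was thus far above the highest of the other populations, and LN-BEC and D-LEC overlapped. The log2 difference was 5.20 ± 0.485 (SE, adjusted p = 2.6e-06 by edgeR) over D-LEC, or 36.8-fold, and 4.50 ± 0.454 (adjusted p = 5.9e-06 by edgeR) over LN-BEC.

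Wnt6, an epithelial ligand of the canonical branch, was at 152, 165, 132 and 118 normalized counts in LN-LEC, 5.25, 6.05 and 25.2 in LN-BEC and 13.9, 12.02 and 23.1 in D-LEC. LN-LEC exceeded D-LEC 8.60-fold (log2 3.11 ± 0.464 SE, adjusted p = 9e-05 by edgeR) and LN-BEC 11.98-fold (log2 3.58 ± 0.482 SE, adjusted p = 3.8e-05). Without LN-BEC replicate 3, the LN-BEC library with the most lymphatic marker RNA, the second log2 difference was 4.62, and D-LEC was then also called above LN-BEC (log2 1.52, adjusted p = 0.011 by edgeR). The part of lymphatic RNA in that library was not tested. Wnt5b, a close relative of Wnt5a (mm9 chr6:119382549-119494365), was at 146, 127, 173 and 111 in LN-LEC, 7.003, 7.78 and 8.40 in LN-BEC and 18.9, 28.1 and 29.7 in D-LEC. No libraries of the 3 populations overlapped for Wnt5b, and it was called in all 3 comparisons, at a log2 difference of 2.45 ± 0.279 (SE) for LN-LEC over D-LEC, 4.17 ± 0.319 over LN-BEC and 1.72 ± 0.332 for D-LEC over LN-BEC.

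Wnt11 and Wnt5b were also the members whose promoter windows in the RefSeq table (300 bases each, 250 before and 50 after an annotated start) held the TCF/LEF motif ATCAAAG or its reverse complement CTTTGAT, searched on both strands. A window was given for 35 members (44 windows), and 2 windows (4.55%) held the motif, beside 3.73% of all 32851 windows, so the members' share is near that of all promoters. They are printed because the factors that read this motif are members of the set and both genes were highest in LN-LEC. Windows were placed on NCBIM37 (mm9) by exact match, each at 1 place, and read 5′ to 3′ on the strand of the gene, with the motif in capitals. The Wnt11 window (plus strand, 1 of its 2 windows) lies at chr7:105983372-105983671, upstream of the start of the counted Wnt11 model, and its motif begins 51 bases before the start. The Wnt5b window (minus strand, 1 of its 3) lies at chr6:119399355-119399654, inside the counted gene span, with the motif beginning 71 bases before the start. A match of letters is a description and no evidence of binding.
Wnt11 promoter: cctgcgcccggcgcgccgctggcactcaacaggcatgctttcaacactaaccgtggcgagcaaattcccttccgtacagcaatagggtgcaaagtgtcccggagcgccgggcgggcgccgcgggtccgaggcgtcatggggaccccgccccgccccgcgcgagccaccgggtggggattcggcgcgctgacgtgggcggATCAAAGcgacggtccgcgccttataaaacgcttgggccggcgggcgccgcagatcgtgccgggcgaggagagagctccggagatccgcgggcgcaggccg
Wnt5b promoter: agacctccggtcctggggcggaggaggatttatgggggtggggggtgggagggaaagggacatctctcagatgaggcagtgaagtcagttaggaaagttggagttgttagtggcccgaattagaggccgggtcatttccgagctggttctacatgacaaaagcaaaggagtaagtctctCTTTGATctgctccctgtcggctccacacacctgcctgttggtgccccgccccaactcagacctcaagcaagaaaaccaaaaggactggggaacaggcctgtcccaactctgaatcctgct

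Wnt9a, Wnt5a, Wnt4, Wnt9b and Wnt2b were the ligands overexpressed in D-LEC. Wnt9a, a ligand known from joint and blood stem cell development (mm9 chr11:59120432-59147054), was at 730, 634 and 973 normalized counts in D-LEC, 158, 142, 121 and 171 in LN-LEC and 66.5, 40.6 and 91.4 in LN-BEC. The populations did not overlap, and all 3 differences were called. D-LEC exceeded LN-LEC 5.17-fold (log2 LN-LEC minus D-LEC -2.37 ± 0.222 SE, adjusted p = 1.7e-06 by edgeR) and LN-BEC 11.8-fold (log2 3.56 ± 0.263 SE, adjusted p = 1.4e-07).

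Wnt5a, the prototype of beta-catenin-independent ligands, was at 289, 309 and 297 in D-LEC, 150, 113, 71.2 and 114 in LN-LEC and 123, 27.7 and 111 in LN-BEC. D-LEC stood above all other libraries, 2.62-fold over LN-LEC (adjusted p = 0.013 by edgeR) and 3.42-fold over LN-BEC (adjusted p = 0.0057), while LN-LEC and LN-BEC overlapped (log2 0.38 ± 0.409 SE, adjusted p = 0.51). Wnt4, a ligand of kidney and reproductive tract development, was at 98.4, 102 and 164 in D-LEC, 25.9, 8.89, 3.39 and 13.2 in LN-LEC and 27.1, 9.51 and 36.8 in LN-BEC, with adjusted p = 0.00026 against LN-LEC and 0.0038 against LN-BEC by edgeR.

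Wnt9b and Wnt2b had the same direction at means under 1 FPKM. Wnt9b ranged from 63.1 to 108 normalized counts in D-LEC, 19.4 to 40.9 in LN-LEC and 11.2 to 22.8 in LN-BEC, and Wnt2b from 62.1 to 109, 25.1 to 48.2 and 35.5 to 43.1. For Wnt9b LN-LEC was also called above LN-BEC (adjusted p = 0.031), although those libraries overlapped, and this call was lost without LN-LEC replicate 2, 3 or 4 or without LN-BEC replicate 2 or 3, and when the 2 populations were fitted alone (adjusted p up to 0.11). The call of Wnt2b over LN-BEC (adjusted p = 0.020 by edgeR) was lost without LN-BEC replicate 2 or D-LEC replicate 3.

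Wnt2 was higher in both lymphatic populations than in LN-BEC. It was at 139, 109, 217 and 274 normalized counts in LN-LEC, 294, 369 and 312 in D-LEC and 4.38, 5.19 and 30.5 in LN-BEC, where replicate 3, the library with the most lymphatic marker RNA of that population, was the highest. The difference was 14.7-fold for LN-LEC (log2 3.88 ± 0.606 SE, adjusted p = 0.00055 by edgeR) and 25.2-fold for D-LEC (log2 4.66 ± 0.627 SE, adjusted p = 0.00016), and without LN-BEC replicate 3 the log2 differences were 5.26 and 6.04. The lymphatic populations did not overlap with each other, but their difference was not called (log2 -0.78 ± 0.458 SE, adjusted p = 0.19 by edgeR). It was called when these 2 populations were fitted alone (adjusted p = 0.042) and without LN-BEC replicate 3 (adjusted p = 0.026). Among the other members called lower in LN-BEC than in both lymphatic populations, Wnt9a, Dkk3 and Lgr4 were also highest in replicate 3 within LN-BEC. For Dkk3 the margin was small (78.8 normalized counts, against 73.5 and 57.9). Wnt5b had 8, 9 and 8 fragments in the LN-BEC libraries, too few to rank them. Rspo3 and Fzd6 were lowest in that library, and Wnt9b and Tcf7l1 were highest in another one. The part of lymphatic RNA in these LN-BEC values was not tested. Wnt8b, at 18.9 to 24.5 normalized counts in LN-BEC, 0 to 5.18 in LN-LEC and 0 to 15.03 in D-LEC, was the only ligand for which LN-BEC was called above LN-LEC (adjusted p = 0.0097 by edgeR), at a mean of 0.193 FPKM, with a log2 difference of -3.33, or -4.04 without LN-LEC replicate 1.

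In all, 8 of 16 tested ligands were called in LN-LEC against D-LEC (3 higher in LN-LEC, 5 in D-LEC), 7 in LN-LEC against LN-BEC (6 and 1), and 7 between D-LEC and LN-BEC, all 7 higher in D-LEC. These are 50%, 43.8% and 43.8% of the tested ligands, close to the 45.8%, 38.2% and 48.1% of all genes. The remaining ligands were scarce. Wnt3a and Wnt8a had no fragment in any library, which allows up to 3 fragments in a library, or 0.0613 to 0.134 CPM (counts scaled to an equal library total, counting error only), and Wnt1 had 1 fragment in all. Wnt3, Wnt7a, Wnt7b, Wnt10a, Wnt10b and Wnt16 had means of at most 0.175 FPKM in every population and no call. Wnt10a came nearest, at 3.77 to 15.6 normalized counts in LN-LEC against 0 to 2.10 in LN-BEC (adjusted p = 0.052 by edgeR, 0.047 by DESeq2 and 0.018 when the 2 populations were fitted alone).

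**Figure D3:**
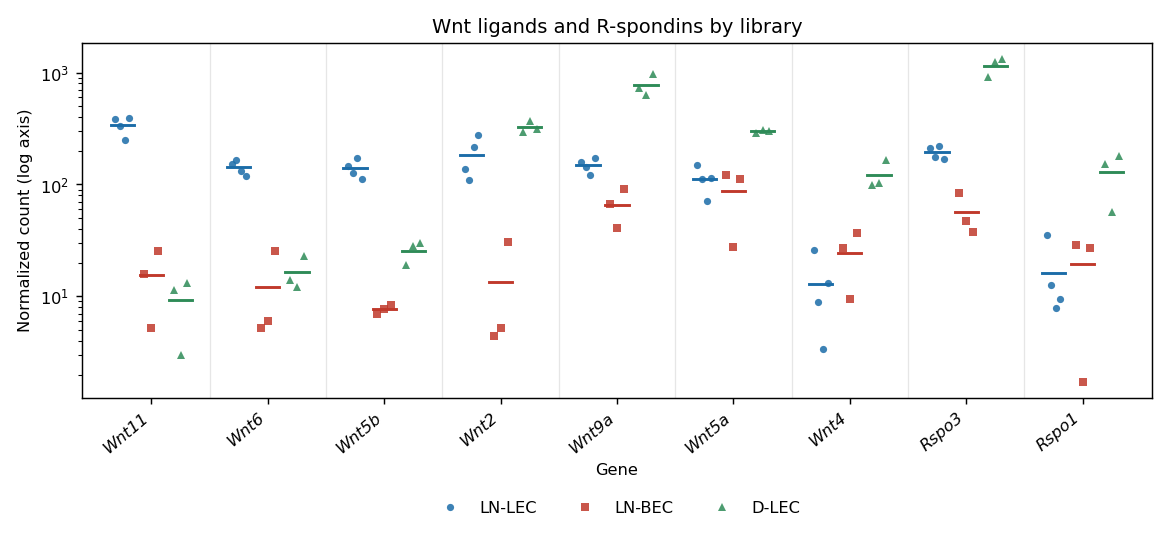
Normalized counts (y axis, log scale) of 7 Wnt ligands and 2 R-spondins (x axis) in every library, with blue circles for LN-LEC, red squares for LN-BEC, green triangles for D-LEC and a line at each mean. Wnt11, Wnt6 and Wnt5b are highest in the 4 LN-LEC libraries, and Wnt9a, Wnt5a, Wnt4, Rspo3 and Rspo1 in the 3 D-LEC libraries.

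The Fzd receptors summed to 157 ± 15.6 FPKM in LN-LEC (SD, n = 4), 134 ± 13.9 in D-LEC (SD, n = 3) and 53.6 ± 8.30 in LN-BEC (SD, n = 3). Fzd6, a receptor known for planar polarity (mm9 chr15:38837826-38869736), made up most of the sum in each population: 90.2% ± 1.48 in D-LEC, 69.2% ± 4.08 in LN-BEC and 61.8% ± 4.05 in LN-LEC. It was at 12261, 11649, 11002 and 11571 normalized counts in LN-LEC, 13096, 17152 and 14706 in D-LEC and 6092, 4788 and 4734 in LN-BEC. LN-BEC was below both lymphatic populations, 2.26-fold against LN-LEC (adjusted p = 2e-06 by edgeR) and 2.87-fold against D-LEC (adjusted p = 1.9e-07). Between the lymphatic populations the difference was 1.27-fold in favour of D-LEC (adjusted p = 0.021), and this call was lost without LN-LEC replicate 3 or D-LEC replicate 2 (adjusted p up to 0.11).

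What set LN-LEC apart was a second group of receptors, Fzd1, Fzd7 and Fzd10. Fzd10 (mm9 chr5:129106981-129109968) was at 1348, 1269, 1274 and 1089 normalized counts in LN-LEC, against 46.4, 21.6 and 85.1 in LN-BEC and 40.4, 40.1 and 61.1 in D-LEC. It was 26.3-fold above D-LEC (log2 4.71 ± 0.351 SE, adjusted p = 1.7e-06 by edgeR) and 25.1-fold above LN-BEC (log2 4.65 ± 0.348 SE, adjusted p = 2e-06). LN-BEC and D-LEC overlapped for Fzd10 (log2 -0.06 ± 0.394 SE).

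Fzd1, a close paralog of Fzd7, was at 3111, 2902, 3009 and 1861 in LN-LEC, 290, 146 and 329 in LN-BEC and 310, 384 and 425 in D-LEC. Fzd7, a receptor of stem and progenitor cells, was at 2887, 3031, 2681 and 1797 in LN-LEC, 519, 320 and 507 in LN-BEC and 213, 166 and 263 in D-LEC. Both were lowest in LN-LEC replicate 4, yet that library was still above every library of the other populations. The difference from D-LEC was 7.36-fold for Fzd1 (adjusted p = 3.3e-05 by edgeR) and 12.3-fold for Fzd7 (adjusted p = 9.2e-07), and from LN-BEC 10.8-fold and 5.85-fold. For Fzd7 LN-BEC was also above D-LEC (log2 difference D-LEC minus LN-BEC -1.07 ± 0.253 SE, adjusted p = 0.0055 by edgeR).

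Fzd4, the Norrin receptor of retinal and barrier endothelium (mm9 chr7:96552876-96558620), had the opposite order. The LN-BEC libraries held 783, 855 and 780 normalized counts, the D-LEC libraries 313, 342 and 412, and the LN-LEC libraries 166, 110, 85.9 and 118. The 3 populations did not overlap, and LN-BEC was 6.67-fold above LN-LEC (adjusted p = 3.1e-08 by edgeR) and 2.27-fold above D-LEC (adjusted p = 1e-04), with D-LEC 2.94-fold above LN-LEC. In FPKM, Fzd4 (6.47 ± 0.777, SD, n = 3) was still below Fzd6 (37.3 ± 7.63) in LN-BEC.

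Fzd5, which was at 122 to 153 normalized counts in LN-LEC, 198 to 236 in LN-BEC and 189 to 260 in D-LEC, was also lowest in LN-LEC (adjusted p = 0.0038 against D-LEC and 0.016 against LN-BEC by edgeR). The second of these calls was lost without LN-BEC replicate 3 (adjusted p = 0.055). Fzd8, at 280 to 445 normalized counts over all libraries, was called in no comparison, and its log2 differences lay between -0.31 and 0.19 with SE of at most 0.153. Fzd2, Fzd3 and Fzd9 had means of at most 0.496 FPKM and were not called. Altogether 6 of 10 receptors were called in LN-LEC against D-LEC (3 in each direction), 6 in LN-LEC against LN-BEC (4 higher in LN-LEC) and 3 between D-LEC and LN-BEC (1 higher in D-LEC), or 60%, 60% and 30% beside 45.8%, 38.2% and 48.1% of all genes.

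Lrp6, the main canonical co-receptor, supplied 92.3% to 94.8% of the Lrp5 and Lrp6 level. Its normalized counts were 4142, 3863, 3305 and 4011 in LN-LEC, 3668, 3444 and 3990 in LN-BEC and 6009, 5520 and 5120 in D-LEC. D-LEC was above both node populations by a modest factor, 1.43-fold over LN-LEC (adjusted p = 0.00049 by edgeR) and 1.49-fold over LN-BEC (adjusted p = 0.00032), and the node populations overlapped. Lrp5, at 95.0 to 136 normalized counts in LN-LEC, 130 to 221 in LN-BEC and 141 to 218 in D-LEC, was not called (adjusted p = 0.058 for LN-LEC against D-LEC and 0.065 against LN-BEC). The DESeq2 Wald test called both of these Lrp5 differences (adjusted p = 0.045 and 0.049).

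**Figure D4:**
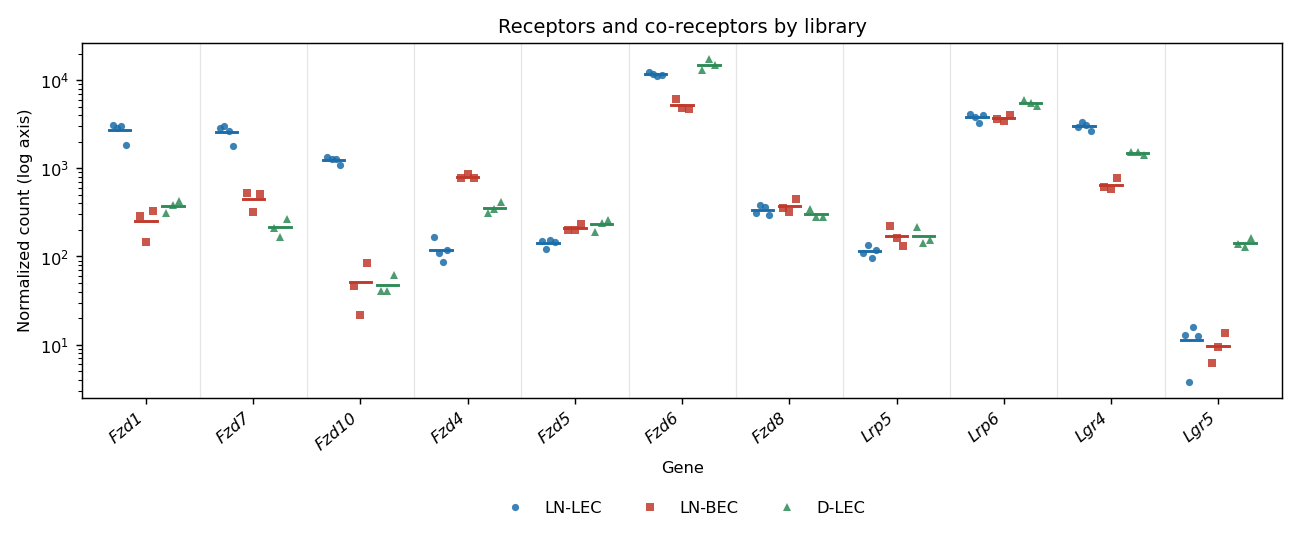
Normalized counts (y axis, log scale) of 7 Fzd receptors, Lrp5, Lrp6, Lgr4 and Lgr5 (x axis) in every library, with blue circles for LN-LEC, red squares for LN-BEC, green triangles for D-LEC and a line at each mean. Fzd1, Fzd7 and Fzd10 stand apart in LN-LEC, Fzd4 in LN-BEC and Lgr5 in D-LEC, while Fzd8 overlaps in all 3.

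R-spondins and their receptors split between the lymphatic populations. Rspo3, the R-spondin of endothelium and of vessel development (mm9 chr10:29172913-29255673), was at 914, 1236 and 1309 normalized counts in D-LEC, 210, 176, 219 and 168 in LN-LEC and 83.2, 47.6 and 37.8 in LN-BEC. No libraries overlapped between populations. D-LEC was 5.90-fold above LN-LEC (log2 LN-LEC minus D-LEC -2.56 ± 0.208 SE, adjusted p = 6e-07 by edgeR) and 20.3-fold above LN-BEC (log2 4.34 ± 0.257 SE, adjusted p = 2.6e-08), and LN-LEC was 3.44-fold above LN-BEC (adjusted p = 6.8e-05). At 16.1 ± 2.85 FPKM (SD, n = 3), Rspo3 in D-LEC was above Wnt9a (7.88 ± 1.86), the leading ligand there.

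Rspo1 was at 153, 57.1 and 181 normalized counts in D-LEC, 35.0, 12.7, 7.92 and 9.43 in LN-LEC and 28.9, 1.73 and 27.3 in LN-BEC, with adjusted p = 0.0067 and 0.016 for D-LEC against LN-LEC and LN-BEC by edgeR. The log2 difference LN-LEC minus D-LEC was -3.02, and -3.68 without LN-LEC replicate 1. Rspo2 had 3 fragments in all libraries together and Rspo4 none. Lgr5, an R-spondin receptor known from intestinal stem cells (mm9 chr10:114887370-115024836), was at 137, 127 and 163 in D-LEC, 12.96, 3.81, 15.8 and 12.6 in LN-LEC and 6.13, 9.51 and 13.7 in LN-BEC. D-LEC was 12.2-fold above LN-LEC (adjusted p = 3.3e-06 by edgeR) and 14.5-fold above LN-BEC (adjusted p = 4.8e-06), and the node populations overlapped.

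Lgr4, the widely expressed receptor of the pair (mm9 chr2:109757804-109854414), had a different order from Lgr5. Its normalized counts were 2920, 3359, 3129 and 2655 in LN-LEC, 1537, 1549 and 1420 in D-LEC and 617, 579 and 769 in LN-BEC. LN-LEC was 2.04-fold above D-LEC (adjusted p = 4.2e-06 by edgeR) and 4.66-fold above LN-BEC (adjusted p = 4.2e-09), and D-LEC was 2.29-fold above LN-BEC. Per length, Lgr4 exceeded Lgr5 in every population and made up 90.7% ± 1.49 of their sum in D-LEC, against 99.6% ± 0.195 in LN-LEC.

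Among the secreted antagonists, Sfrp1 and Dkk2 were overexpressed in LN-LEC and Sfrp2 and Dkk3 in D-LEC. Sfrp1, a soluble Frizzled-like decoy (mm9 chr8:24521974-24560104), was at 3115, 2263, 3522 and 2472 normalized counts in LN-LEC, 568, 317 and 551 in LN-BEC and 213, 93.2 and 112 in D-LEC. LN-LEC was 21.0-fold above D-LEC (log2 4.40 ± 0.355 SE, adjusted p = 7.6e-06 by edgeR) and 6.01-fold above LN-BEC (adjusted p = 0.00014), and LN-BEC was 3.50-fold above D-LEC (adjusted p = 0.0021). Sfrp1 was 82.8% ± 7.11 of the Sfrp level of LN-LEC, in FPKM.

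Sfrp2, the fibroblast-enriched relative of Sfrp1, was at 2196, 613 and 1533 normalized counts in D-LEC, 412, 216, 105 and 257 in LN-LEC and 498, 64.0 and 266 in LN-BEC. D-LEC was above all other libraries, but the spread within each population was wide (log2 LN-LEC minus D-LEC -2.52 ± 0.730 SE, adjusted p = 0.024, and D-LEC minus LN-BEC 2.38 ± 0.798 SE, adjusted p = 0.041 by edgeR). The first call was lost without LN-LEC replicate 2, 3 or 4 or D-LEC replicate 1 or 3, and the second without LN-LEC replicate 2 or 4, LN-BEC replicate 2 or 3, or D-LEC replicate 1 or 3, and when the 2 populations were fitted alone (adjusted p up to 0.12). Without LN-BEC replicate 1 the second log2 difference was 3.15.

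Markers of other cell types followed Sfrp2, Rspo1 and some other members by library or were highest in D-LEC. The summed level of 6 fibroblast markers (Pdgfra, Col1a1, Col1a2, Col3a1, Dcn and Lum, none at 0) was 9978, 3185 and 5986 normalized counts in D-LEC, 8865, 5921, 4491 and 8043 in LN-LEC and 9831, 2652 and 8520 in LN-BEC. Within each population, the libraries with the lowest and highest fibroblast sums were also those with the lowest and highest Sfrp2. The fibroblast sums of D-LEC overlapped those of both node populations, and Sfrp2 overlapped between the node populations but not between them and D-LEC. The summed level of 4 mesothelial markers (Msln, Upk3b, Wt1 and Lrrn4) was 1287, 488 and 1537 in D-LEC against 15.8 to 53.1 in LN-LEC and 9.51 to 92.8 in LN-BEC, and D-LEC replicate 2, the lowest for mesothelial markers, was also the lowest for Rspo1 and Sfrp2. The summed level of 8 skeletal muscle markers was 1056 to 1531 in D-LEC against 31.4 to 46.7 in LN-LEC and 84.8 to 104 in LN-BEC. In the paper, average purity after sorting was lowest for D-LEC and highest for LN-LEC. The part of fibroblasts, mesothelial cells and muscle in the D-LEC values was not tested. In bulk libraries fewer cells of a type and less RNA per cell cannot be told apart. Of the other members overexpressed in D-LEC, Rspo3, Wnt4, Wnt5a and Fzd6 were lowest in replicate 1, the D-LEC library with the most fibroblast and the least muscle marker RNA. Wnt9a, Wnt9b, Wnt2b, Lgr5 and Dkk3 were lowest in replicate 2, the D-LEC library with the least fibroblast and mesothelial marker RNA. Lrp6 was lowest in replicate 3. Over the D-LEC libraries Wnt9a, Wnt2b, Lgr5 and Dkk3 had the order of the mesothelial sums, and Wnt9b that of the fibroblast sums. Wnt5a differed little between the D-LEC libraries (289, 309 and 297 normalized counts). Over the LN-LEC libraries Sfrp2, Wnt5a, Wnt4 and Lrp6 had the order of the fibroblast sums. Over the LN-BEC libraries Sfrp2, Wnt5a, Rspo1 and Wnt9b had it. The remaining members overexpressed in D-LEC did not have it there. How far fibroblast RNA entered these values was not tested.

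Dkk2, a modulator of Lrp6 (mm9 chr3:131748256-131843268), was at 789, 658, 641 and 945 normalized counts in LN-LEC, 151, 130 and 161 in LN-BEC and 31.5, 44.1 and 48.8 in D-LEC. The populations did not overlap, and LN-LEC was 18.3-fold above D-LEC (log2 4.19 ± 0.200 SE, adjusted p = 1.2e-09 by edgeR) and 5.22-fold above LN-BEC (adjusted p = 1e-07). Dkk3, a divergent family member not known to bind Lrp6, was at 792, 625 and 916 in D-LEC, 468, 279, 304 and 504 in LN-LEC and 73.5, 57.9 and 78.8 in LN-BEC. It too was called in all 3 comparisons, at 1.96-fold for D-LEC over LN-LEC (adjusted p = 0.0021 by edgeR), 5.64-fold for LN-LEC over LN-BEC and 11.1-fold for D-LEC over LN-BEC.

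Within the Dkk family, Dkk2 took 58.9% ± 2.40 of the length-scaled level in LN-LEC and Dkk3 82.3% ± 4.85 in D-LEC. Dkk4, an antagonist of Lrp6 with low RNA throughout, was at 25.2 to 56.1 normalized counts in all libraries with no call. Sfrp4 and Sfrp5 had means of at most 0.497 FPKM and no call, Dkk1, the classical inhibitor, had 15 fragments over the 10 libraries, and Wif1 had 5. The summed level of 7 markers of mural cells, the contractile cells around vessels, was 3232 to 5302 normalized counts in LN-LEC, 5917 to 7419 in LN-BEC and 188 to 359 in D-LEC. Rgs5 made up most of this sum in both node populations. It was at 2733 to 4542 in LN-LEC, 4046 to 4612 in LN-BEC and 42.9 to 103 in D-LEC. Pdgfrb, Acta2, Myh11, Notch3 and Cspg4 were higher in every LN-BEC library than in any LN-LEC library. Cspg4 and Des overlapped between LN-LEC and D-LEC. D-LEC was thus lowest for the sum as for Sfrp1, Dkk2 and Fzd7, but LN-BEC was highest for the sum and LN-LEC for the 3 members. The part of mural cells in these values was not tested.

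Inside the cell, Ctnnb1 was the member with the most RNA per length, at 398 ± 63.6 FPKM in D-LEC (SD, n = 3), 307 ± 82.8 in LN-BEC (SD, n = 3) and 211 ± 17.1 in LN-LEC (SD, n = 4). Its protein also serves in cell junctions, and its RNA does not measure signaling. In normalized counts it was at 23744, 22994, 21304 and 20961 in LN-LEC, 47180, 30636 and 34961 in LN-BEC and 37905, 52053 and 39544 in D-LEC. LN-LEC was below all other libraries (log2 -0.94 ± 0.146 SE against D-LEC, adjusted p = 0.00014, and -0.74 ± 0.146 against LN-BEC, adjusted p = 0.0011 by edgeR), and the other populations overlapped.

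Of the nuclear factors, Tcf7l2 and Tcf7l1 supplied most RNA, with Tcf7l2 at 68.6% to 78.8% of the Tcf/Lef level. Tcf7l2 was at 10518, 11168, 10126 and 9428 normalized counts in LN-LEC, 10197, 11234 and 9326 in LN-BEC and 6758, 6630 and 6411 in D-LEC. Both node populations were above D-LEC, 1.58-fold (adjusted p = 3e-05 by edgeR) and 1.56-fold (adjusted p = 6.2e-05), and they overlapped with each other. Tcf7l1, usually a repressor, differed little: 1682 to 1954 in LN-LEC, 1338 to 1504 in LN-BEC and 1605 to 2139 in D-LEC. LN-BEC was lower by 1.27-fold than either lymphatic population (adjusted p = 0.018 and 0.017 by edgeR). These calls were lost without LN-BEC replicate 1, and singly without LN-LEC replicate 3 and D-LEC replicate 1 (adjusted p up to 0.083), and 3.02% of the exon bases of Tcf7l1 overlap another gene, so that fragments there were not counted.

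Tcf7 and Lef1 are the factors best known from T cells. Tcf7 was lowest in D-LEC and Lef1 highest in LN-BEC. Tcf7 (mm9 chr11:52066106-52095752) was at 12.6, 10.02 and 25.6 normalized counts in D-LEC, 113, 96.5, 106 and 137 in LN-LEC and 184, 195 and 129 in LN-BEC. It was 6.95-fold higher in LN-LEC (log2 2.80 ± 0.323 SE, adjusted p = 8.3e-06 by edgeR) and 10.3-fold higher in LN-BEC (adjusted p = 1.7e-06) than in D-LEC, and the node populations overlapped. Lef1 was at 42.9, 51.9 and 23.1 in LN-BEC, 7.78, 11.4, 6.78 and 20.1 in LN-LEC and 6.31, 11.02 and 8.26 in D-LEC, and was called higher in LN-BEC than in both (adjusted p = 0.0093 and 0.0034 by edgeR), while LN-LEC and D-LEC overlapped (adjusted p = 0.46). The call over LN-LEC was lost without LN-BEC replicate 2 (adjusted p = 0.051).

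T cell genes moved with Lef1 in part. Cd3e, a chain of the T cell receptor complex, was at 101, 139 and 87.2 normalized counts in LN-BEC, 6.48 to 18.2 in LN-LEC and 0 to 18.9 in D-LEC, and like Lef1 it was highest in LN-BEC replicate 2 and lowest in LN-BEC replicate 3 within that population. The sum of all 8 T cell markers gave another order, 419 to 677 in LN-BEC, 531 to 637 in LN-LEC and 1943 to 2547 in D-LEC, where Cd2 made up most of it. The 5 B cell markers summed to 570 to 851 in LN-BEC, 337 to 485 in LN-LEC and 13.2 to 40.4 in D-LEC, the same order as the mean of Tcf7. The part of lymphocyte RNA in Lef1 and Tcf7 was not tested.

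Axin2, the common target of the canonical branch, differed by small factors. It was at 159, 159, 141 and 138 normalized counts in LN-LEC, 135, 118 and 94.5 in LN-BEC and 102, 99.2 and 90.1 in D-LEC. LN-LEC was 1.56-fold above D-LEC (log2 0.64 ± 0.185 SE, adjusted p = 0.011 by edgeR), whereas the difference from LN-BEC did not pass (log2 0.38 ± 0.182 SE, adjusted p = 0.12) although the libraries did not overlap.

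**Figure D5:**
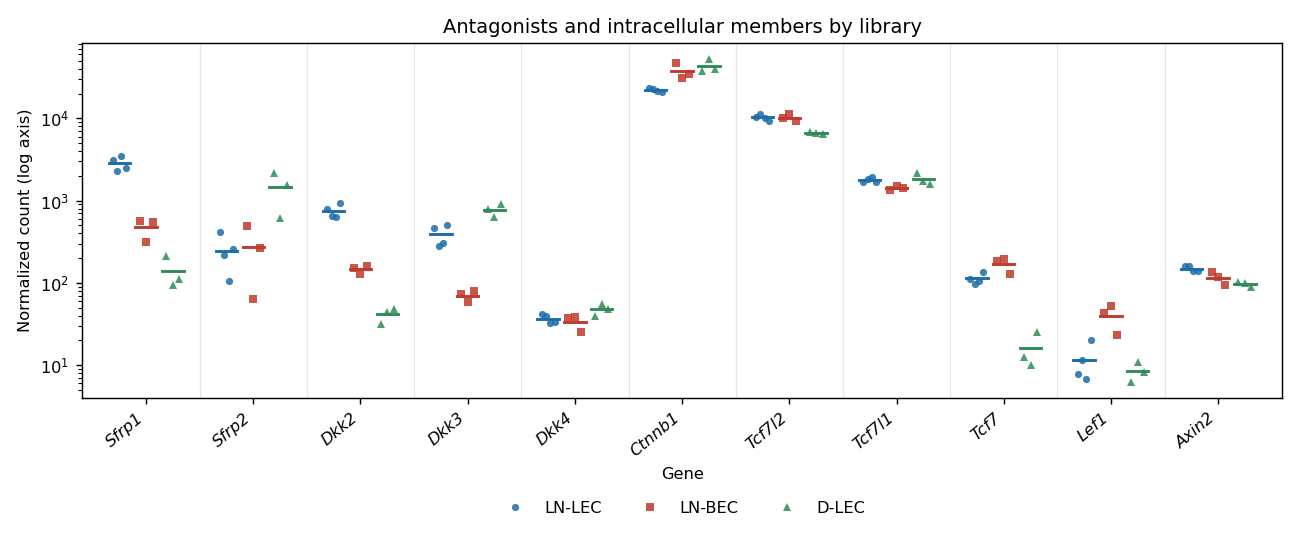
Normalized counts (y axis, log scale) of 5 antagonists, Ctnnb1, 4 Tcf/Lef factors and Axin2 (x axis) in every library, with blue circles for LN-LEC, red squares for LN-BEC, green triangles for D-LEC and a line at each mean. Sfrp1 and Dkk2 are highest in LN-LEC and Sfrp2 and Dkk3 in D-LEC, and Tcf7 is lowest in D-LEC.

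The wider pathway was described with a list of 92 further genes in the table, of which 90 were tested. In LN-LEC against D-LEC 51 were called (27 higher in LN-LEC, 24 in D-LEC), in LN-LEC against LN-BEC 45 (24 and 21 higher in LN-BEC), and between D-LEC and LN-BEC 52 (25 higher in D-LEC and 27 in LN-BEC). These are 56.7%, 50% and 57.8% of those tested, beside 45.8%, 38.2% and 48.1% of all genes, and the median log2 differences were 0.06, 0.01 and -0.06. By sublist, 8 of 15 tested target genes were above D-LEC in LN-LEC and 1 was below, beside 24.1% and 21.7% of all genes. Those 8 include Plvap, which Wnt signaling is known to repress in barrier vessels. In LN-LEC, 5 target genes were above and 5 below LN-BEC, beside 19.8% and 18.4% of all genes. In D-LEC, 3 were above and 8 below LN-BEC, beside 22.5% and 25.6% of all genes. In LN-LEC against D-LEC, of 20 cytoplasmic relay genes 4 were higher and 6 lower. Of 11 planar polarity genes 5 were higher in LN-LEC and 3 lower, and of 14 further receptors and co-receptors 2 were higher and 6 lower. Of 10 further antagonists 4 were higher and 2 lower, and of 15 nuclear genes 4 were higher and 5 lower. Of 5 genes of ligand secretion and modification 0 were higher and 1 lower. Many genes of the target list answer to other pathways as well, so that their count is no measure of Wnt activity.

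Named by size of change, Cd44, an adhesion receptor and target gene, was at 2543, 3301, 1817 and 3027 normalized counts in LN-LEC, 1815, 1372 and 2382 in LN-BEC and 174, 139 and 71.1 in D-LEC (21.6-fold for LN-LEC over D-LEC, adjusted p = 1.2e-05 by edgeR). Nkd1, a feedback inhibitor that binds Dishevelled, was at 618, 471 and 478 in D-LEC against 55.9 to 86.8 in LN-LEC and 17.3 to 46.4 in LN-BEC (7.16-fold for D-LEC over LN-LEC, adjusted p = 8.6e-07). Nkd1 and Axin2, both known as feedback genes of the canonical branch, thus differed in opposite directions between LN-LEC and D-LEC. Sdc1, a heparan sulfate proteoglycan, was at 8337 to 9385 in D-LEC, 980 to 1668 in LN-LEC and 261 to 403 in LN-BEC, and Frzb, a further Frizzled-like decoy, at 161 to 172, 26.7 to 33.7 and 15.6 to 84.9. Plvap, the diaphragm protein of fenestrated endothelium, was at 16054 to 17867 in LN-LEC, 33470 to 43134 in LN-BEC and 3401 to 4377 in D-LEC.

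LN-BEC stood apart most in Sox17, Abcb1a and Apcdd1. Sox17, a transcription factor of arterial endothelium, was at 3582, 3729 and 3955 normalized counts in LN-BEC, 24.9 to 58.5 in LN-LEC and 15.1 to 21.5 in D-LEC (90.3-fold and 202-fold higher in LN-BEC, adjusted p = 5.6e-11 and 3.9e-11 by edgeR). Abcb1a, the efflux pump of barrier endothelium, was at 5805 to 6505 in LN-BEC, 36.8 to 74.8 in LN-LEC and 47.9 to 89.2 in D-LEC. Apcdd1, an antagonist induced by Wnt in barrier vessels, was at 143 to 193 in LN-BEC, 6.48 to 10.2 in LN-LEC and 1.26 to 12.4 in D-LEC. Gpc4, a glypican, was at 458 to 728 in LN-BEC, 65.6 to 109 in LN-LEC and 171 to 235 in D-LEC, and Igfbp4, a growth factor binding protein that also antagonizes Wnt, at 9208 to 9829, 49391 to 60918 and 23943 to 42046.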

How the data were processed

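The authors trimmed read pairs (Fastx-trimmer), mapped them with STAR (mm9) and made the counts with featureCounts 1.4.4 on the exons of each gene symbol, without strand and without fragments that mapped to several places or overlapped several genes. RNA had been amplified (Ovation RNA-Seq System V2). The deposited counts were raw fragments for 23284 symbols, and a deposited column gave exon length.

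Counts were divided by DESeq2 (1.42.0) size factors for levels within a gene, and FPKM used exon length and total counts. Predicted genes and clones (3823 symbols) were left out, and 15325 genes with a mean of at least 1 normalized count in a population were tested. The main test was edgeR 4.0.16 (R 4.3.3): TMM, robust dispersion and a quasi-likelihood model of the 10 libraries with a mean for each population, Benjamini-Hochberg adjustment over all genes of a comparison, called at an adjusted p under 0.05. Standard errors are the log2 fold change over the square root of F. DESeq2's Wald test, other scaling and filters, fits of 2 populations, and leaving out each library were alternatives.

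Members, lists and tests were chosen with earlier results of these data known. Every member is named. Those with a mean of at least 1 FPKM in a population are given by library or as a range. Of the further pathway genes, the 5 with the largest log2 change per comparison were named among those called, without overlap and at 100 or more normalized counts in mean. Labels give no batch, sorting day or pairing, so none was modelled. The deepest library had 48906070 fragments and the shallowest 22429940, and limits for 0 counts (3 counts) cover counting error only. Promoter windows came from RefSeq (GRCm38.p6) and were placed on NCBIM37 by exact match.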

Additional observations from a re-analysis of the deposited data

Results flagged for a closer look

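Among 44 members compared within the 4 LN-LEC libraries, 1 had a library whose gap to the others was large against the range of all 4 by Dixon's test: Fzd1 was at 1861 normalized counts in LN-LEC replicate 4, the deepest library, against 2902 to 3111 in the other three (gap over range 0.833). Such a test picks out about 1 group in 20 by chance. Without this library Fzd1 was still called higher in LN-LEC than in both other populations. Groups of 3 libraries were not examined in this way.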

How the results depend on the processing

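Of 71 calls of members, 62 were kept in every one of up to 16 alternatives and 9 were lost in at least 1; no called difference changed direction. The lost calls, given beside their values, were those of Sfrp2, Wnt9b, Wnt2b, Lef1, Fzd5, Fzd6 and Tcf7l1. Of 67 differences not called, 16 passed in at least 1 alternative. With a library left out, members called numbered 25 to 29 in LN-LEC against D-LEC, 19 to 22 in LN-LEC against LN-BEC and 21 to 25 between D-LEC and LN-BEC, and under the other alternatives 25 to 29, 18 to 23 and 20 to 23. With genes of a mean of at least 1 FPKM only, for 3 members in place of 5 LN-BEC was called above LN-LEC, because Wnt8b and Lef1 are then not tested. Of the further genes 42 to 53, 38 to 50 and 42 to 53 were called over all alternatives. Without length scaling, 12 of 24 leading family shares moved by more than 1 SD. No paired analysis was possible because the labels carry no replicate numbers that the populations share. Members with a few fragments per library allow no call of less than large differences, and the p-values measure the spread between pools of animals.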
